A study of Mus musculus with 4 samples.

Results

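9 transcription factors of the adipogenic programme were followed through every cell class of the endosteal bone marrow: Pparg, Cebpa, Cebpb, Cebpd, Ebf1, Ebf2, Ebf3, Zfp423 and Zfp467. They were listed by name for their role in adipogenesis, with earlier results of these data known, and all 9 of 9 were found by symbol among the genes listed (26600 symbols are shared by all libraries). 8 are listed in all libraries, whereas Cebpd is listed only in the 16 month library and has no value at the other ages. The study sequenced single Td+ cells from the endosteal marrow of the long bones of male Col2/Td mice, in which a Col2-driven Cre switches on the red reporter tdTomato. The labels give the strain as B6SJL/F1 for every library. Cells of 2 mice aged 1 month, 3 mice aged 1.5 months, 3 mice aged 3 months and 3 mice aged 16 months were pooled by age, so each age is 1 library without a replicate. The labels name no treatment.

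Limits of the model touch every value. The sort took the brightest Td+ cells where no Td peak was seen, and hematopoietic cells are nevertheless part of each library, as 68.5%, 2.81%, 31.1% and 13.01% of the cells kept at 1, 1.5, 3 and 16 months. Each age is also its own batch of library construction, so library, batch and age cannot be told apart. The cell barcodes of the 1, 1.5 and 3 month libraries begin with the same 480 stretches of 7 bases, while those of the 16 month library begin with 960, of which 129 are shared with the others. The 16 month library therefore stands apart in its barcode set as well as in age, and it lost more barcodes to the limit of 5% mitochondrial UMIs (2987 of 9229) than the others (98, 291 and 326). Libraries shared at most 61 barcodes. Counts of members and of listed genes are therefore also given without the 16 month library.

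Adipogenesis runs through a cascade of transcription factors. Cebpb and Cebpd are induced early and switch on Pparg and Cebpa, which maintain each other and drive the genes of lipid handling and insulin response. EBF factors and the zinc finger protein Zfp423 mark and commit precursors, and Ebf1 is also required for B cell development. Zfp467 is a zinc finger protein that favours adipocytes over osteoblasts in marrow stroma. Outside fat, Cebpa and Cebpb are regulators of myeloid cells and Pparg is active in macrophages and in endothelium, so hematopoietic cells share part of the programme.

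Promoter windows of 3 members are shown because the levels below turn on these genes: Pparg and Cebpa, the late regulators, and Ebf3, the member whose AD-like level differed most between libraries. Each runs from 250 bases before to 50 bases after a transcription start, 5′ to 3′ on the strand of the gene, from RefSeq on GRCm38.p6. The windows are chr6:115421816-115422115 (+), chr7:35119043-35119342 (+) and chr7:137314396-137314695 (-), and that of Pparg belongs to the most downstream of its 3 starts in the table, the only one of the 3 windows that holds a match. Capitals mark matches to TTGCNNAA, a C/EBP-type motif, or to CCCNNGGG, an EBF-type motif, on either strand.
Pparg: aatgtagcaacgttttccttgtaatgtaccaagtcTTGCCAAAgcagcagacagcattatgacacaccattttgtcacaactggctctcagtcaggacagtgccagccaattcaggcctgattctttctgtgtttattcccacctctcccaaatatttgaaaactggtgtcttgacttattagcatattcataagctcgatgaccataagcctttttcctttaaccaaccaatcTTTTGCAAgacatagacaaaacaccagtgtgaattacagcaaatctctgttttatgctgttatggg
Cebpa: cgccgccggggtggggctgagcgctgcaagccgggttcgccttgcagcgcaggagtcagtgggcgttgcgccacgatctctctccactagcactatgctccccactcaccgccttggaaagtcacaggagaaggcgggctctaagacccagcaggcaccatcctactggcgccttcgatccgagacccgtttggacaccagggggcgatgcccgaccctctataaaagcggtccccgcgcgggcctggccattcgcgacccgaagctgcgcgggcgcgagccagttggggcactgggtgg
Ebf3: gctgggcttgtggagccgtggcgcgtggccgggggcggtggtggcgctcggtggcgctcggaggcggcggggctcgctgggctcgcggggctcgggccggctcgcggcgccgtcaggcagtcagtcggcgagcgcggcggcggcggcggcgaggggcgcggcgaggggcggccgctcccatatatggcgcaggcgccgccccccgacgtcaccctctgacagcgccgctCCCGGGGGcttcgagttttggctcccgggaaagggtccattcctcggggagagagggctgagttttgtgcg
The Pparg window holds 2 C/EBP-type matches, beginning 215 and 16 bases before the start. The Ebf3 window holds 1 EBF-type match, and the Cebpa window holds neither. Windows of 7 of the 9 members were matched by symbol (11 windows in all), of which 2 hold the C/EBP-type and 4 the EBF-type motif; Cebpd and Ebf2 were not matched. Of all 32851 windows of this length, 10.8% hold the first motif and 13.7% the other. A match describes letters, not a bound site.

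Genes lie on GRCm38 (GENCODE M21) as follows. Pparg spans chromosome 6 from 115360951 to 115490399 and Zfp467 the same chromosome from 48427697 to 48445825. Cebpa (35119293 to 35121928) and Ebf3 (137193673 to 137314445) lie on chromosome 7. Cebpb lies on chromosome 2 (167688915 to 167690418), Cebpd on chromosome 16 (15887286 to 15891031), Ebf1 on chromosome 11 (44617317 to 45008091), Ebf2 on chromosome 14 (67233292 to 67430918) and Zfp423 on chromosome 8 (87661810 to 87959595). All 9 are protein-coding, and values are counts over the whole gene.

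Levels are counts per 1000000 UMIs (CPM). For a class of cells in 1 library, the unique molecular identifiers (UMIs, which tag captured transcript molecules) of a gene are pooled and scaled to all UMIs of these cells. Parentheses hold 95% intervals, which are Poisson intervals for a CPM, exact conditional intervals for a ratio and exact Clopper-Pearson intervals for a share, and they cover counting error only. CPM are compared between classes for 1 gene, never between genes. Classes were named from fixed markers that include none of the 9 members, which were also left out of the genes that clustered the cells. The class called AD-like carries the adipocyte lineage markers Adipoq, Lepr, Lpl and Cxcl12, and held 226, 1172, 421 and 3715 cells at 1, 1.5, 3 and 16 months. All 10 of its markers were at least 2-fold higher than in LMP-like cells in every library, with a median fold of 148, 47.0, 141 and 10.5. LMP-like (late mesenchymal progenitor) cells numbered 679, 925, 469 and 245, and EMP-like (early mesenchymal progenitor) cells 163, 116, 165 and 136. The make-up of LMP-like cells differed between libraries. A cluster led by Ostn, Aspn, Tnn and Postn, or by a set much like it, gave 56.3%, 68.4%, 50.3% and 100% of them. The rest were clusters led by Nov, Nppc, Mfap4 or Tnmd, genes of tendon and fibrous tissue among them, that hold no LMP marker among their 10 leading genes. Limited to the first kind of cluster, LMP-like cells gave the same count of members below. Osteoblast-like (OB-like), osteocyte-like (Ocy-like), chondrocyte-like (CH-like), endothelial-like, mural-like and several hematopoietic classes complete the set, and 704 cells in clusters of mixed markers were left out. A class needed 20 cells in a library, which gave 62 class values.

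AD-like cells stood among the 3 highest classes of every library for all the factors listed there except Zfp467, although they were the highest class in all 4 libraries only for Cebpa and Ebf3. Class ranks were read for the members only, so they have no background over all genes. Of the 8 listed in every library, 7 (Pparg, Cebpa, Cebpb, Ebf1, Ebf2, Ebf3 and Zfp423) were at least 2-fold higher in AD-like than in LMP-like cells in each library, and none was at least 2-fold lower in each. Of 9592 genes above the filter (mean of 5 CPM), 6.19% met the same rule upwards and 5.25% downwards. Against all hematopoietic cells summed, 6 of the 8 were at least 2-fold higher in every library, where 17.4% of 9672 genes were higher and 9.54% lower. The exceptions were Cebpb, with a ratio of 1.95 at 16 months, and Zfp467, with 1.60 at 3 months. Over LMP-like cells, Pparg and Ebf2 passed the filter only through their AD-like level. Over hematopoietic cells, Ebf2 and Zfp423 did so. Without the 16 month library the counts were 7 over LMP-like and 7 over hematopoietic cells, the latter including Cebpb. With LMP-like cells limited as above, the count was again 7. No test was made between classes, as clusters were cut from the same cells and cells are not replicates.

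**Figure D1:**
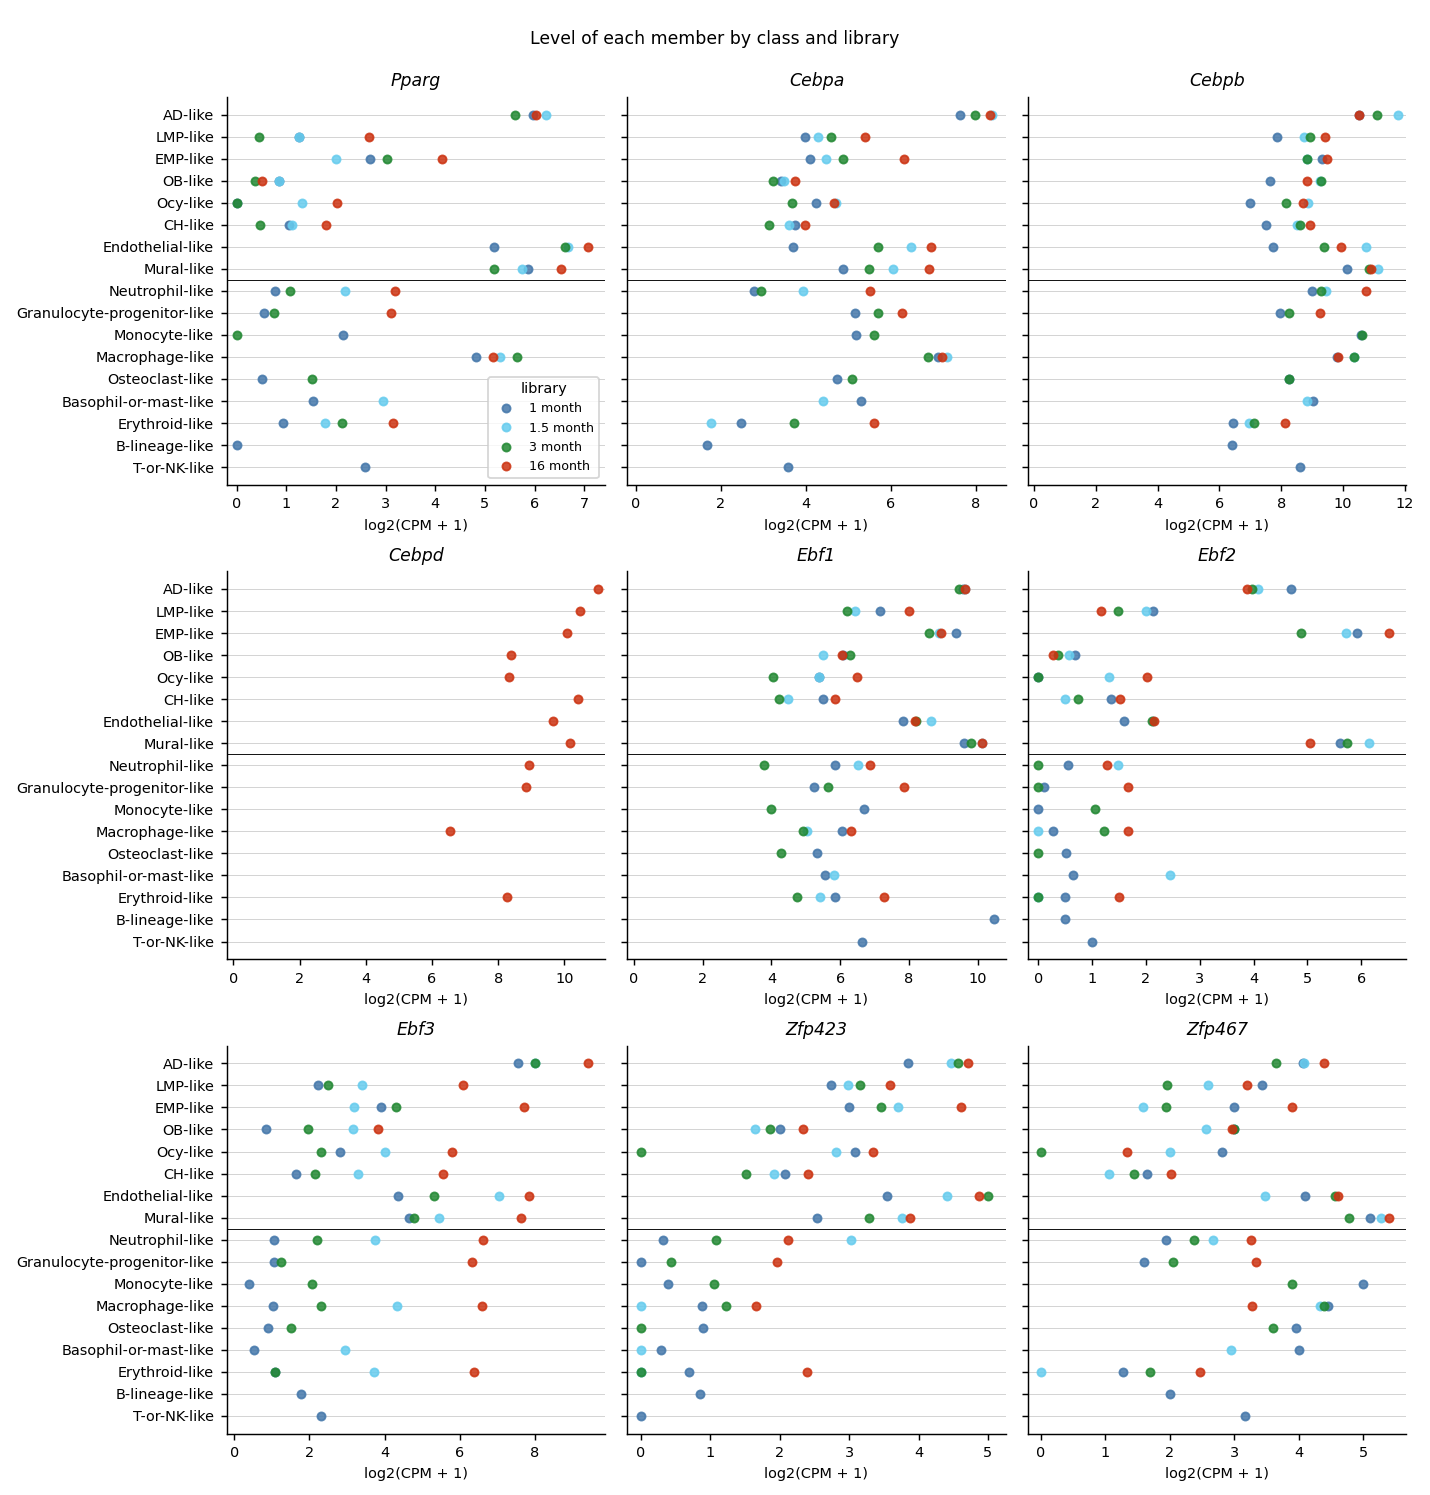
Level of each member as log2(CPM + 1) in each named class, with 1 point per library and a line between non-hematopoietic and hematopoietic classes. AD-like cells lead every library for Cebpa and Ebf3 and mural-like cells do for Zfp467, while Cebpd has points at 16 months only.

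Pparg, the master regulator of fat cell differentiation, was counted in AD-like cells at 61.8 CPM (50.6 to 74.7) at 1 month, 74.2 (68.0 to 80.7) at 1.5 months, 47.9 (38.6 to 58.8) at 3 months and 64.5 (62.0 to 67.2) at 16 months. LMP-like cells held 1.38, 1.38, 0.360 and 5.32 CPM. AD-like cells were thus higher by 44.9-fold (22.8 to 101), 53.7-fold (30.5 to 104.6), 133-fold (23.3 to 5314) and 12.1-fold (7.08 to 22.8), and the 3 month ratio rests on a single UMI in LMP-like cells. Against hematopoietic cells the ratio was 23.7, 12.1, 5.91 and 7.12.

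AD-like cells were nevertheless not the class with the highest Pparg level. Endothelial-like cells held 35.5, 101.2, 96.1 and 133 CPM and were highest at 1.5, 3 and 16 months, although at 1.5 months their interval (68.3 to 144.5) overlaps that of AD-like cells. Macrophage-like cells, where Pparg is a known regulator, held 27.2, 38.4, 49.1 and 34.7 CPM, and mural-like cells 57.3, 52.6, 35.1 and 91.4. Osteoblast-like cells held between 0.292 and 0.814 CPM. At 1 month AD-like and mural-like cells led with overlapping intervals, and at 16 months the endothelial-like interval (115 to 153) overlapped that of mural-like cells (55.8 to 141) but lay above that of AD-like cells.

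Cebpa, the partner of Pparg in the mature programme, was highest in AD-like cells in all 4 libraries, and its interval there did not overlap that of the next class. The level was 197 CPM (177 to 219) at 1 month, 331 (318 to 345) at 1.5 months, 252 (230 to 275) at 3 months and 321 (316 to 327) at 16 months. LMP-like cells held 14.8, 18.7, 23.0 and 41.3 CPM, which gives ratios of 13.3, 17.8, 10.9 and 7.78. Macrophage-like cells came next at 1, 1.5 and 16 months, with 137, 160 and 147 CPM. At 3 months the next class was one named after its leading genes Limch1, Mmp9 and Angpt4 (126 CPM), just above macrophage-like cells (117). Granulocyte-progenitor-like cells, which depend on Cebpa, held 35.0, 51.1 and 75.5 CPM at 1, 3 and 16 months.

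Cebpb, an early factor of the cascade that is also a stress and inflammation responsive gene, was broadly present. AD-like cells held 1454 CPM (1397 to 1512), 3507 (3464 to 3551), 2200 (2134 to 2268) and 1450 (1437 to 1462) at 1, 1.5, 3 and 16 months. LMP-like cells held 232, 428, 483 and 680, so the ratio was 6.27, 8.19, 4.56 and 2.13. The lowest of these fell to 1.97 with 20 components and with the mean of each cell's CPM, and to 1.98 with thinned cells. It was highest at 1 month in monocyte-like cells (1528), with an interval that overlaps AD-like cells, and at 16 months in mural-like cells (1924) ahead of neutrophil-like cells (1699). AD-like cells led only at 1.5 and 3 months. Erythroid-like cells held 84.9, 124, 137 and 278 CPM, and B-lineage-like cells 83.8 at 1 month.

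Cebpd, the other early C/EBP factor, could be read at 16 months only. AD-like cells held 2059 CPM (2045 to 2074), followed by LMP-like (1418), CH-like (1348), the class led by Spp1, Dmp1 and Mmp13 (1177), mural-like (1142) and EMP-like cells (1069). AD-like over LMP-like cells was 1.45-fold (1.40 to 1.50) and AD-like over hematopoietic cells 5.21-fold (5.05 to 5.38). The lowest class was macrophage-like cells, at 93.2 CPM. Cebpd therefore stayed below the 2-fold mark that Cebpb passed against LMP-like cells in the same library.

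**Figure D2:**
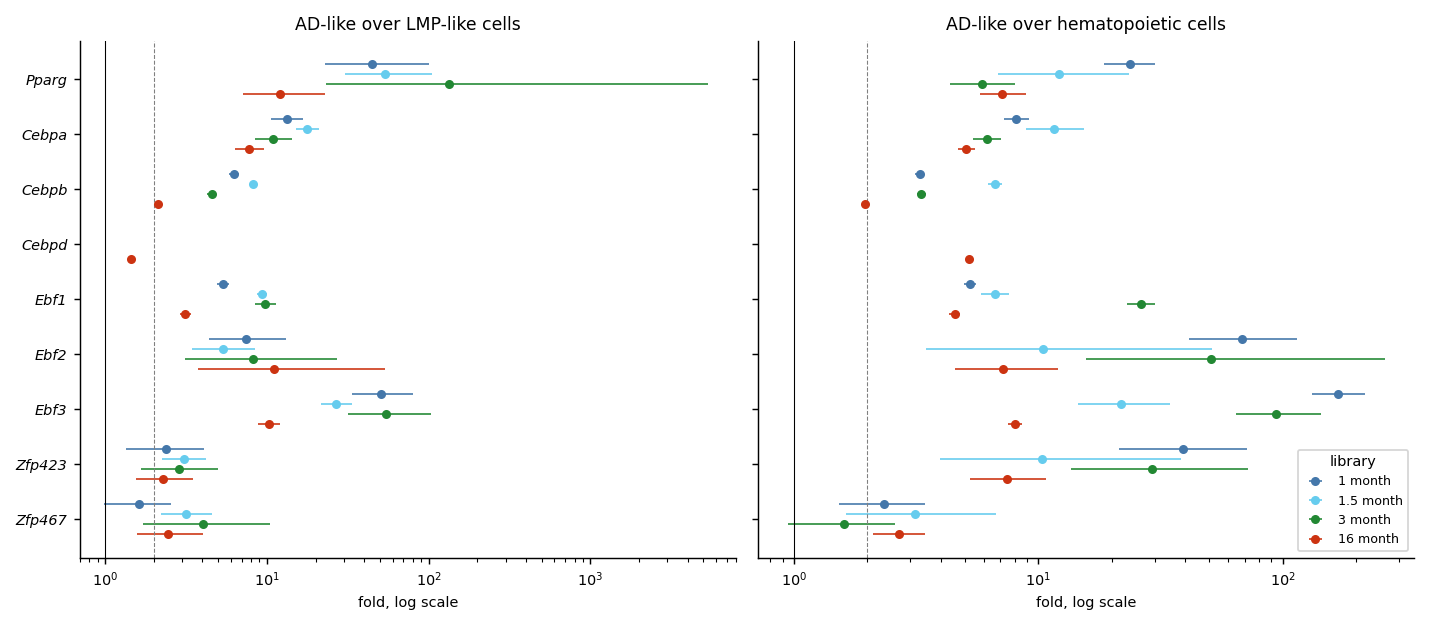
Ratio of CPM in AD-like over LMP-like (left) and over hematopoietic cells (right) for each member, with 1 point per library, exact 95% intervals and a log axis. Pparg and Ebf3 have ratios over LMP-like cells between 10.3 and 133. Points below 2 belong to Zfp467 and Cebpd on the left and to Zfp467 and Cebpb on the right.

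Ebf1, needed by adipocyte precursors and by B cells alike, was held by AD-like cells at a nearly even level: 762 CPM (721 to 804), 798 (778 to 819), 708 (670 to 746) and 794 (785 to 803). LMP-like cells held 142, 85.5, 72.4 and 254, with ratios of 5.35, 9.33, 9.78 and 3.13. B-lineage-like cells had the highest level of the 1 month library, at 1432 CPM (1399 to 1466). Mural-like cells held 773, 1125, 887 and 1115 CPM and were highest in the other 3 libraries; their intervals overlapped AD-like cells at 1 and 3 months. EMP-like cells held 655, 471, 385 and 487 CPM. They came next after AD-like cells at 16 months, and in the other libraries stood behind the class led by Kcnk2, Slc20a2 and Limch1 (672 and 643 at 1 and 1.5 months) or by Limch1, Mmp9 and Angpt4 (422 at 3 months).

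Ebf2, known as a factor of beige and brown fat precursors, was low and did not peak in AD-like cells. It was counted at 25.1, 16.0, 14.7 and 13.6 CPM there, and at 59.5, 51.3, 28.6 and 90.4 CPM in EMP-like cells. Mural-like cells, at 47.7, 70.2, 52.7 and 32.0 CPM, alternated with EMP-like cells at the top. At 16 months the EMP-like interval (73.9 to 109.6) lay above the mural-like one (12.9 to 65.9); in the other libraries the pair overlapped. LMP-like cells held at most 3.36 CPM, and hematopoietic cells at most 1.89. The excess over LMP-like cells depends on the clustering: its lowest ratio was 5.33 here but 0.457 at a resolution of 0.5 and 0.452 with 20 components, where the direction turned.

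Ebf3, a factor needed by the reticular stromal cells of the marrow niche, was likewise highest in AD-like cells throughout. They held 186 CPM (166 to 208), 256 (244 to 268), 255 (233 to 279) and 682 (673 to 690.1), the highest class of every library with no overlap with the next. LMP-like cells held 3.67, 9.55, 4.68 and 66.3 CPM, and the ratio was 50.7, 26.8, 54.6 and 10.3. The lowest of these depended on the cells kept: it was 18.4 with thinned cells, 17.6 with the mean of each cell's CPM and 32.7 without the 8% of cells with the highest doublet scores. Over hematopoietic cells the lowest ratio was 8.04, and 18.3 without these cells. The next class was the one led by Kcnk2, Slc20a2 and Limch1 at 1 month (62.4 CPM), the one led by Limch1, Mmp9 and Angpt4 at 3 months (81.0) and endothelial-like cells at 1.5 and 16 months (132 and 227). In these 2 libraries the AD markers in endothelial-like cells stood at a median of 27.1% and 24.3% of their AD-like level, against 2.73% and 6.64% at 1 and 3 months. Hematopoietic cells held 1.10, 11.7, 2.70 and 84.8 CPM. Unlike Ebf1, it was near 0 in B-lineage-like cells (2.41 CPM at 1 month).

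Zfp423, a determinant of preadipocytes, was low throughout: 13.4 CPM (8.50 to 20.1), 21.1 (17.9 to 24.8), 22.6 (16.4 to 30.5) and 25.2 (23.6 to 26.8) in AD-like cells. It passed the 2-fold mark over LMP-like cells by a small margin, with ratios of 2.37 (1.35 to 4.10), 3.06, 2.86 and 2.28. The lowest ratio fell short of 2 when cells were thinned to 3000 UMIs (1.50), at a resolution of 0.5 (1.99) and without the 8% of cells with the highest doublet scores (1.97). Endothelial-like cells held 10.7, 20.3, 31.2 and 28.2 CPM, with intervals that overlap AD-like cells in every library. Neither class can be put above the other at this depth.

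Zfp467 was highest in mural-like cells in all 4 libraries, at 33.4, 37.6, 26.3 and 41.1 CPM, although each interval overlaps that of the next class. AD-like cells held 15.7, 16.0, 11.6 and 20.1 CPM and ranked between 3 and 6 of 13 to 20 classes. The ratio over LMP-like cells was 1.61 (0.987 to 2.56) at 1 month and 3.15, 4.02 and 2.45 in the later libraries. Monocyte-like cells held 31.1 and 13.8 CPM at 1 and 3 months and macrophage-like cells 20.9, 19.2, 19.9 and 8.67. Erythroid-like cells were lowest at 1 and 1.5 months, and osteocyte-like cells at 3 and 16 months.

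Shares of cells with a UMI were read as well. Each cell was thinned to 3000 UMIs, because median depth differed (7009, 5816.5, 3939 and 9737 UMIs in AD-like cells), and shallower cells were left out (226 of 226, 1172 of 1172, 363 of 421 and 3642 of 3715 AD-like cells stayed). Ebf1 was found in 87.6%, 89.3%, 85.1% and 87.0% of AD-like cells (97.3%, 96.2%, 91.0% and 98.7% without thinning) and Ebf3 in 39.4%, 51.8%, 53.4% and 83.3% (73.5%, 75.9%, 65.8% and 98.3%). The background was read in neutrophil-like cells (median 11623, 11083, 6140 and 5885.5 UMIs), where free RNA, doublets and own transcripts cannot be told apart. It was 11.7%, 19.0%, 2.33% and 9.83% for Ebf1 and 0.400%, 2.38%, 0.466% and 12.0% for Ebf3. Ebf1 and Ebf3 thus exceeded this level in AD-like cells of every library.

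Pparg was found in 16.8% (12.2 to 22.3), 18.4% (16.3 to 20.8), 12.4% (9.19 to 16.2) and 16.6% (15.4 to 17.9) of thinned AD-like cells, and in 33.6%, 34.3%, 17.3% and 41.3% without thinning. Neutrophil-like cells showed 0.150% at 1 month, 0.233% at 3 months and 2.99% at 16 months. At 1.5 months 0 of 42 neutrophil-like cells had a Pparg UMI, which allows a share of up to 7.14%. Cebpa was found in 42.5%, 60.3%, 50.7% and 57.6% of AD-like cells (70.4%, 79.2%, 62.0% and 86.2% without thinning) against 0.906%, 2.56%, 6.12% and 5.58% in erythroid-like cells. Cebpb was found in 90.7%, 94.1%, 90.4% and 82.0% of AD-like cells and in 16.5%, 17.9%, 20.4% and 25.6% of erythroid-like cells. Cebpd was found in 86.8% of AD-like and 20.9% of erythroid-like cells at 16 months. Ebf2, Zfp423 and Zfp467 were found in at most 6.19%, 8.82% and 6.43% of AD-like cells (14.6%, 21.6% and 17.6% without thinning), against at most 0.300% and 0.427% in neutrophil-like cells for Ebf2 and Zfp423 and 0.566% in erythroid-like cells for Zfp467. At 1.5 months none of the 3 was found in the 42 neutrophil-like cells, which again allows up to 7.14%. Zfp467 had no UMI in the 39 erythroid-like cells of that library either, and fewer cells allow a higher share. The shares of Ebf2 and Zfp467 in AD-like cells at 1.5 months thus cannot be set above the background. For 6 members (Pparg, Cebpa, Cebpb, Ebf1, Ebf2 and Ebf3) the thinned share in AD-like cells lay above that in LMP-like cells in every library, without overlap of the intervals. The same 6 met this without the 16 month library, but Cebpb dropped out without thinning and Ebf2 at 2000 UMIs. Shares were read for the members only, so this count has no background over all genes. A missing UMI at this depth does not show that a cell lacks the gene.

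Co-detection of Pparg, Cebpa, Ebf1 and Ebf3 was read in the thinned AD-like and LMP-like cells. None of the 4 was found in 4.87%, 1.88%, 3.31% and 0.796% of thinned AD-like cells at 1, 1.5, 3 and 16 months, against 70.0%, 74.0%, 77.1% and 46.3% of LMP-like cells. All 4 were found in 3.10%, 4.95%, 3.86% and 7.25% of AD-like cells. In LMP-like cells the count with all 4 was 0 of 679, 0 of 925, 0 of 450 and 0 of 244, which allows shares of up to 0.442%, 0.324%, 0.667% and 1.23%. Within AD-like cells Cebpa was found in 44.7% (28.6 to 61.7) of those with Pparg and 42.0% (34.9 to 49.4) of those without at 1 month, and in 56.5% (49.6 to 63.2) and 61.2% (58.0 to 64.3) at 1.5 months. At 3 months the shares were 62.2% (46.5 to 76.2) and 49.1% (43.4 to 54.7), and at 16 months 60.7% (56.7 to 64.6) and 56.9% (55.1 to 58.7). The intervals overlap in all 4 libraries.

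At 16 months, AD-like cells differed from the other libraries at the 2-fold mark in Ebf3 alone among the 8 factors. Ebf3 was 2.66-fold above the highest of the 3 other libraries, and its 16 over 3 month ratio was 2.67 (2.44 to 2.93). Of all 9384 genes, 5.73% were at least 2-fold above the highest and 2.81% at least 2-fold below the lowest. Pparg, Cebpa and Ebf1 lay inside the range of the other ages. Cebpb (1450 against 1454 to 3507) and Ebf2 (13.6 against 14.7 to 25.1) lay just below it, Zfp423 and Zfp467 just above. With 1 library per age, age and library cannot be told apart.

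Outside AD-like cells, Ebf3 at 16 months was above the other libraries at the 2-fold mark in EMP-, LMP-, CH- and neutrophil-like cells. It was 208 CPM against 8.05 to 18.6 in EMP-like, 66.3 against 3.67 to 9.55 in LMP-like, 46.1 against 2.15 to 8.88 in CH-like and 97.1 against 1.09 to 12.5 in neutrophil-like cells. The rule could be read for all 8 members in EMP-like cells, and for 6, 4 and 5 in LMP-, CH- and neutrophil-like cells, as the others fell below the filter. None of the 5 read in OB-like and of the 7 in endothelial-like cells met it. Without the 8% of cells with the highest doublet scores, Ebf3 at 16 months was 18.4 CPM in LMP-like and 11.8 in CH-like cells, against at most 7.60 and 7.34 in the other libraries, so that the CH-like value no longer met the rule. In EMP-like cells it was 276 against at most 15.4. With LMP-like cells limited to their main cluster, Ebf1 and Zfp423 met the rule besides Ebf3. EMP-like cells also held more Pparg (16.5 against 3.02 to 7.15), Cebpa (79.1 against 16.2 to 28.6) and Zfp467 (13.9 against 2.01 to 6.95). However, the 16 over 3 month interval of Pparg (0.834 to 7.91) includes 1, and Zfp467 was only 2.002 times the highest other library. Zfp467 in EMP-like cells and Ebf3 in CH-like cells passed the filter only through their 16 month level. The same held for Ebf3 and Zfp423 in the limited LMP-like cells. Neutrophil-like cells also held more Cebpa (44.9 against 5.87 to 14.2) and Cebpb (1699 against 512 to 695). The rule was met upwards and downwards by 12.5% and 5.46% of genes in EMP-like, 11.6% and 9.12% in CH-like, 12% and 5.51% in LMP-like, 12.4% and 11.7% in neutrophil-like, 5.1% and 6.26% in endothelial-like and 3.91% and 3.54% in OB-like cells.

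Markers of AD-like cells moved with these values. At 16 months the 10 AD markers (Adipoq, Lepr, Cxcl12 and 7 more) reached a median of 28.7% of their AD-like level in EMP-like, 9.54% in LMP-like, 5.66% in CH-like, 14.4% in neutrophil-like, 24.3% in endothelial-like and 1.63% in OB-like cells. Ebf3 stood at 30.5%, 9.73%, 6.77%, 14.2%, 33.3% and 1.94% of its AD-like level in the same classes. Pparg and Cebpa in EMP-like cells stood at 25.6% and 24.6%, and Cebpa in neutrophil-like cells at 13.98%, beside the marker medians of these classes. In EMP-like cells of the 1, 1.5 and 3 month libraries the marker median was 0.523%, 2.74% and 2.24%. The part of AD-like RNA in the Ebf3, Pparg and Cebpa values outside AD-like cells was not tested. By contrast, Ebf2 in EMP-like cells at 16 months stood at 664% of its AD-like level, and Zfp423 at 93.3%.

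**Figure D3:**
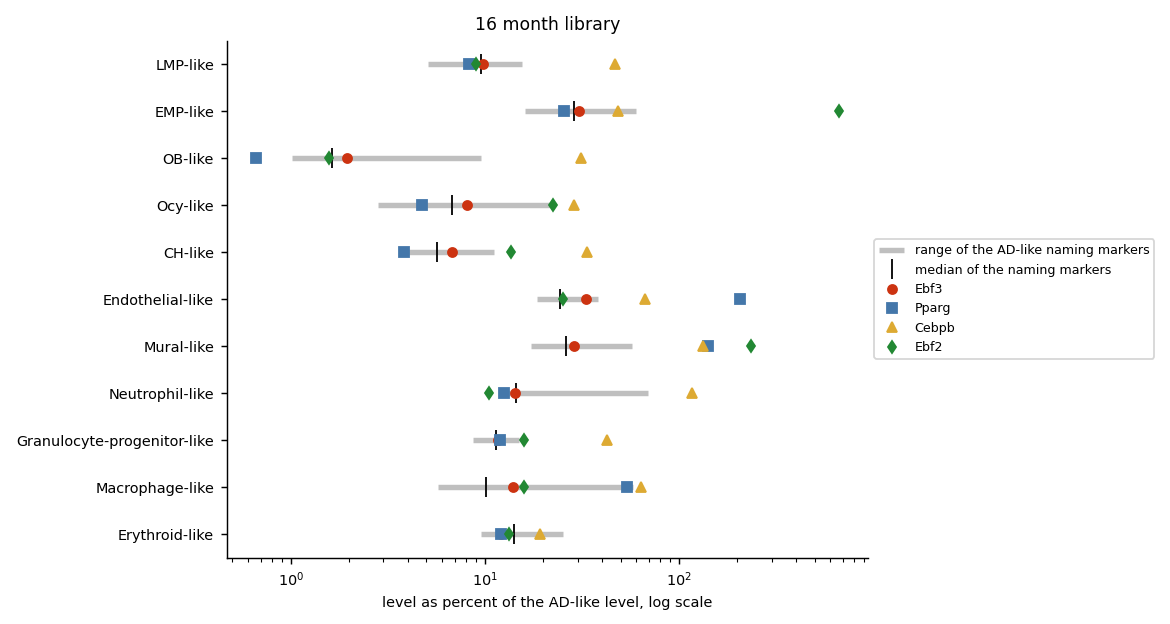
Level of Ebf3, Pparg, Cebpb and Ebf2 in each class of the 16 month library as a percent of the AD-like level (log axis), over the range (grey bar) and median (tick) of the 10 AD markers. The Ebf3 points lie near the marker medians, 30.5% beside 28.7% in EMP-like cells, whereas Ebf2 in EMP-like cells stands at 664%.

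**Figure D4:**
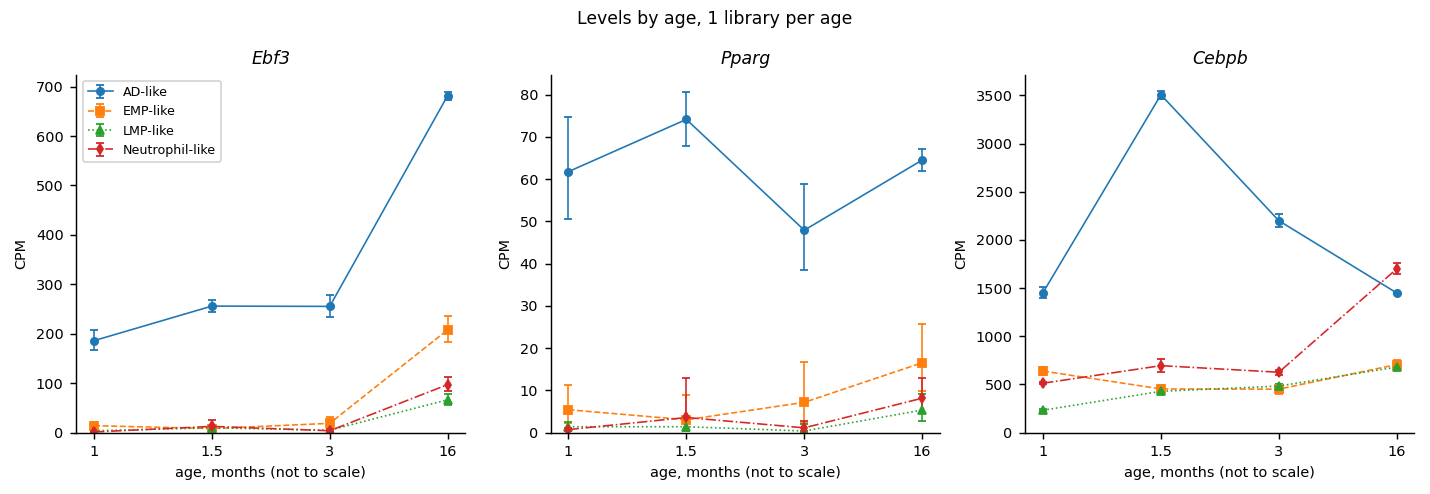
CPM of Ebf3, Pparg and Cebpb by age in AD-like, EMP-like, LMP-like and neutrophil-like cells, with 1 library per age and bars for 95% Poisson intervals (ages not to scale). Ebf3 is highest at 16 months in all 4 classes, at 682 CPM in AD-like cells, whereas AD-like Pparg stays between 47.9 and 74.2.

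AD-like cells were not uniform. Subclusters were drawn without the members among the clustering genes, and their values are a description. At 16 months, Cebpb ran from 376 CPM in the 657 cells led by Cxcl13, Pappa, Hp and Rspo2 to 2692 CPM in the 838 cells led by the chemokine and inflammation genes Ccl2, Ptx3 and Ccl7. Cebpd ran from 703 to 2702 CPM in the same pair. Ebf1 ran the other way, at 1032 against 656 CPM, and so did Ebf3, at 813 against 635. The range of Pparg was 42.9 to 72.6 CPM in 6 subclusters and 154 in 51 cells led by Mrap, Kit, Trf and Itih5.

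Cebpb also differed between the 2 AD-like subclusters of the 1.5 and 1 month libraries. At 1.5 months it was 4364 CPM in 850 cells and 1061 in 322 cells, which are led by Esm1, Adipoq, Cxcl12 and Hp. At 1 month it was 1633 CPM in 181 cells and 644 in 45. Immediate early genes, which tissue digestion can induce, differed in the same direction there. The summed level of 11 such genes, a list chosen after these values were seen, was 20813 CPM against 9927 at 1.5 months and 14398 against 12717 at 1 month. At 16 months the sum was 9073 CPM in the Cxcl13 and Pappa subcluster and between 19386 and 34629 in the others. The lower end of that range was the Ccl2, Ptx3 and Ccl7 subcluster, where Cebpb was highest. For AD-like cells as a whole it was 14093, 17989, 17150 and 25121 CPM, and for LMP-like cells 6642, 8378, 9351 and 21578; its part in the Cebpb and Cebpd values was not tested.

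**Figure D5:**
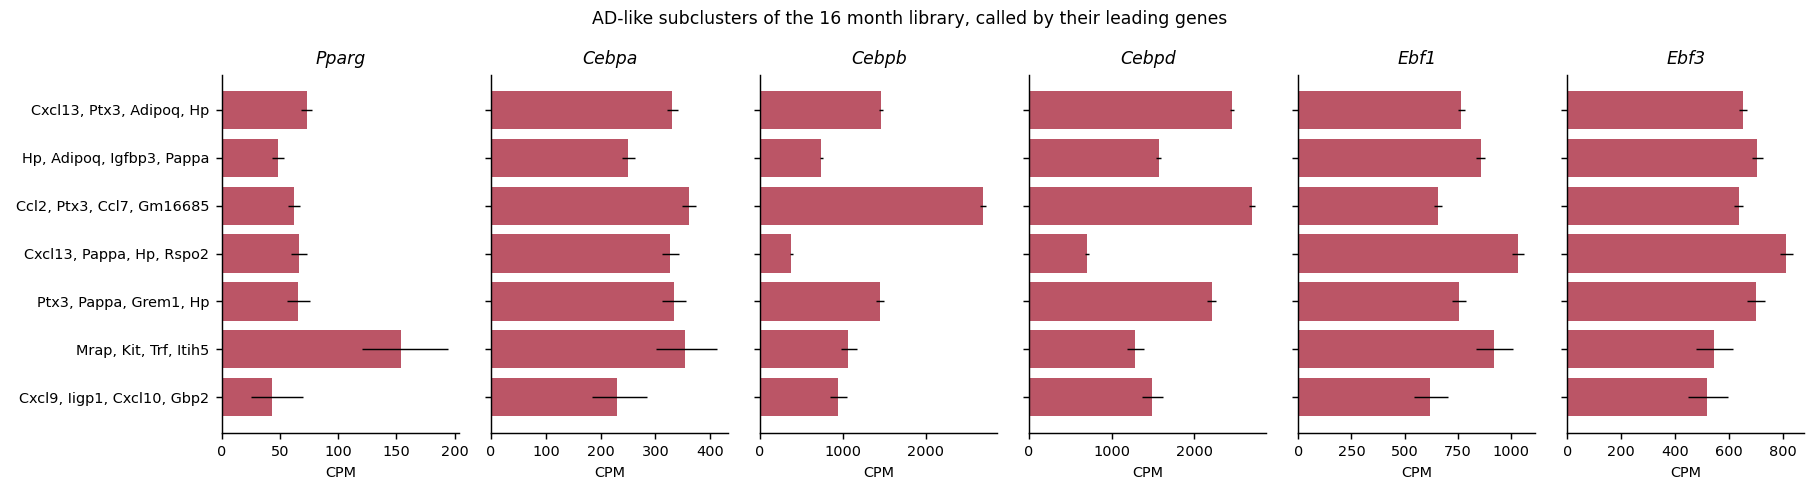
CPM of Pparg, Cebpa, Cebpb, Cebpd, Ebf1 and Ebf3 in the AD-like subclusters of the 16 month library (bars from 0, with 95% Poisson intervals), called by their leading genes. Cebpb spans 376 to 2692 CPM between the subclusters led by Cxcl13, Pappa, Hp and Rspo2 and by Ccl2, Ptx3 and Ccl7.

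The wider pathway followed in part. Of 24 other adipogenic factors and coactivators, 19 passed the filter and 4 were at least 2-fold higher in AD-like than in LMP-like cells in every library, with none lower: Nr1h3 (LXR alpha), Egr2, Tcf7l2 and Id4. Their median log2 ratios were 2.75, 1.53, 1.45 and 4.26, and the median over the 19 was 0.57. The median over the 8 members was 2.67 and over all genes tested 0.10. Of all genes tested, 6.19% met the rule upwards and 5.25% downwards. Nr1h3 and Klf15 passed the filter only through AD-like cells. Without the 16 month library 7 of 18 were higher, as Klf15, Stat5a and Stat5b, whose ratio at 16 months was below 2, were added, and 8.53% of all genes tested then met the rule upwards. Of 5 other C/EBP and EBF genes, 4 passed the filter and none met the rule; Cebpg and Ddit3 lay at 0.65 and 0.65.

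Of 15 genes that restrain adipogenesis, 12 passed the filter. Hes1 and Snai2 were higher (1.75 and 1.36) and Zfp521, an antagonist of EBF factors, and Dlk1, a preadipocyte marker, were lower (-2.13 and -1.95). However, Dlk1 passed the filter only through its level in LMP-like cells at 1 month (30.55 CPM). It was below 5 CPM in LMP-like cells of the later libraries and in AD-like cells of every library. Of 25 textbook targets of PPARgamma and C/EBP factors, 13 passed the filter and 5 were higher, with none lower, among them Fabp4 (1.81), Plin2 (1.30), Angptl4 (2.56) and Pdk4 (2.55). Beside the counts of restraining genes and targets, 6.19% of all genes tested met the rule upwards and 5.25% downwards. Pdk4 passed the filter only through AD-like cells. Fabp5 lay at -1.70 and Fasn at -0.55, short of the rule, although Fabp5 met it downwards without the 16 month library (6.08% of all genes did). The counts higher among targets and both counts among restraining genes were the same without it. Of the 12 targets below the filter, Cidec, Lep and Pck1, genes of mature or metabolically active fat cells, had no UMI in AD-like cells of the 1, 1.5 and 3 month libraries, where 3 UMIs would be 1.75, 0.420 and 1.58 CPM. At 16 months Cidec was at 0.0534 CPM and the others had none. Plin1, which coats lipid droplets, had no UMI at 1 month and was at 0.280, 0.527 and 0.480 CPM at 1.5, 3 and 16 months, and Aqp7, a glycerol channel of fat cells, at 2.33, 9.79, 4.21 and 10.3. These lists were set with earlier results known, so the counts describe and do not test.

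Across the 62 class values, the gene most like each member in its pattern was found by Pearson correlation of log2(CPM + 1), as a description over points that share libraries and depth. Ebf3 resembled Kitl (r = 0.96), Cxcl12 (0.94) and Ms4a4d (0.93) most. Pparg resembled Sult1a1 (0.88), Cebpa Ifnar2 (0.84), Cebpb Stx7 (0.81), Ebf1 Akap12 (0.83), Ebf2 Twist2 (0.90), Zfp423 Zfp503 (0.91) and Zfp467 Ifngr2 (0.77). Among the members themselves, the closest pairs were Ebf1 with Ebf2 (0.78), Cebpa with Cebpb (0.76) and Ebf3 with Zfp423 (0.76), and the least alike were Ebf3 with Zfp467 (0.35). Over the 49 values without the 16 month library the first gene was the same for 7 of the 8, the exception being Zfp467 (Ptpn1, 0.77, just ahead of Ifngr2), and Kitl with Ebf3 was at 0.94.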

How the data were processed

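Td+ cells were profiled by droplet single-cell RNA sequencing in 4 libraries, 1 per age. Per the labels, the authors made the deposited values, raw UMI counts per gene and barcode, with Cell Ranger 3.0.2 on mm10, and used Seurat 2 (submitters' processing notes). The design text names V3 chemistry for every library. Tables hold 8417, 5745, 4516 and 9229 barcodes and 108227184, 63258961, 32672631 and 93269331 UMIs. Median depth was 10238, 9309, 5998.5 and 8648 UMIs per barcode.

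The filter kept 8308, 5453, 4180 and 6143 cells, with a limit of 5% on mitochondrial UMIs and 200 to 6000 genes detected. Doublets were removed only in an alternative. Clustering used R 4.3.3 with Seurat 5.3.0 and Matrix 1.6.5 (resolution 0.8, 30 components), without the 9 members and the naming markers. Canonical correlation aligned the 1 with the 1.5 month library. A type's name with "-like" needed 3 or more raised markers, and other clusters are called by their leading genes. This naming rule, which uses markers only, was revised 2 times after cluster names had been seen. The member counts over LMP-like and hematopoietic cells (7 and 6 of 8) were the same under the second and the final version.

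Because each age is 1 library, no test was made. Intervals (95%) cover counting error only. Calls are a 2-fold difference in every library among genes with a mean of 5 CPM or more. The rule was also run on simulated counts that held counting error only. They held no differences in gene level between libraries and no changes near 2-fold, so they cannot gauge the calls under those conditions. Python 3.11.15, numpy 2.4.6, scipy 1.17.1, pandas 2.3.3 and matplotlib 3.10.9 were used. Members and lists were chosen with earlier results of these data known. Named besides the members are the 3 genes most like each member, genes of the fixed lists that passed the filter (up to 4 at each end and those called), naming markers and leading genes; Cidec, Lep and Pck1 were named after their values were seen. The alternatives that leave out a library or limit LMP-like cells, the doublet alternative for classes other than AD-like, and the immediate early list were chosen after values were seen, as were Plin1 and Aqp7. No columns of other samples were used. 1 gene of the list of PPARgamma and C/EBP targets is counted but its own values are not reported here.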

Additional observations from a re-analysis of the deposited data

Results flagged for a closer look

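At 16 months Cebpb and Ebf2 lay above all other libraries in some classes and below all of them in others. These differences between classes were not tested, and of the values below only that of Cebpb in neutrophil-like cells passed the 2-fold mark. The clusters that make up neutrophil-like cells differed between libraries. At 16 months all 284 of these cells came from a cluster led by Retnlg, Mmp8, Ifitm6 and Mmp9. At 3 months, and in the younger libraries clustered together, they also included a cluster led by Ngp, Chil3 and Camp. The part of this make-up in the neutrophil-like Cebpb value was not tested. The AD-like Cebpb interval at 16 months (1437 to 1462 CPM) lies inside that of the 1 month library (1397 to 1512). Cebpb at 16 months was 0.997 of the lowest other library in AD-like cells, and 1.11, 1.41, 1.25 and 2.45 times the highest other library in EMP-like, LMP-like, CH-like and neutrophil-like cells. Ebf2 was 0.923, 0.682 and 0.730 of the lowest other library in AD-like, LMP-like and OB-like cells, and 1.52, 1.203 and 1.02 times the highest in EMP-like, CH-like and endothelial-like cells. The Ebf2 levels in LMP-like and OB-like cells at 16 months rest on 3 UMIs and 1 UMI, so their intervals span the other libraries. Those in CH-like and endothelial-like cells were low as well, at 1.845 and 3.433 CPM. Their 16 over 3 month intervals (0.4351 to 14.4 and 0.2385 to 4.502) include 1.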

How the results depend on the processing

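Of 67 recomputed counts of members or listed genes, 62 stayed within 1.5 times their reported value. At least 4-fold instead of 2-fold left 4 members (Pparg, Cebpa, Ebf2 and Ebf3) higher in AD-like than in LMP-like cells. Without the 16 month library 7 instead of 4 other adipogenic factors were higher and 1 instead of 0 targets (Fabp5) was lower. At 16 months, 0 instead of 1 members were changed in CH-like cells without the highest doublet scores, and 3 instead of 1 in LMP-like cells limited to their main cluster. Neutrophil-like and endothelial-like cells gave no value without the highest doublet scores, because too few of them were left at 1.5 months. The Ebf2 ratio over LMP-like cells turned, to 0.457 at a resolution of 0.5 and 0.452 with 20 components; the cause was not tested. Cebpa and Ebf3 were highest in AD-like cells in every library under all alternatives run, and Ebf3 was the only member changed at 16 months in AD-like cells under all of them. The count over LMP-like cells ran from 4 to 8 and that over hematopoietic cells from 6 to 8. Depth limits Zfp423, Zfp467 and Ebf2, which rest on 22 to 43 UMIs in AD-like cells at 1 and 3 months. No paired analysis was possible because each age has 1 library and no test was made; leaving out replicates was likewise not possible.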
